A study of Mus musculus with 32 samples.

Results

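Wild-type trachea was compared with wild-type lung in 16 of the 28 samples of the series, chosen by their labels alone: 8 lungs and 8 tracheas of wild-type mice, measured on 18 of its 32 arrays. Lung 2 and trachea 2 each had a second array, which was averaged with the first. The series as a whole measured both organs in wild-type mice and in mice that lack Car6, the gene of secreted carbonic anhydrase VI, on Illumina bead arrays, in which each probe reports the RNA of a gene as a fluorescence signal. Every mouse was a C57BL/6 male aged 2 months, the labels name no treatment, and 150 ng of total RNA was labelled per sample. Mice are numbered within each organ, and the labels leave unsaid whether equal numbers stand for one animal and how the organs were dissected. The p-values below therefore measure the spread between these samples.

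The trachea is a tube held open by rings of hyaline cartilage. Its lining holds basal stem cells, ciliated cells and secretory cells, with mucous and serous glands below, and smooth muscle closes the cartilage rings at the back. The lung is mostly gas-exchange surface, where flat alveolar type 1 cells lie against capillaries and cuboidal type 2 cells secrete surfactant, and its bronchioles are lined by club and ciliated cells but have almost no glands in the mouse. The thyroid and parathyroid glands, strap muscles, thymus and fat lie against the trachea, and large vessels join the heart to the lung.

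Values are normalized log2 intensities. The 3 values given for a tissue are the lowest, the median and the highest of its 8 samples, differences are trachea minus lung on the log2 scale with the standard error, and a gene was called at an adjusted p under 0.05 (limma). Each array detected 11735 to 13139 of 25697 probes at a detection p under 0.01, and the median signal of a wild-type array was 92.4 to 114.6. A probe entered when 6 or more of the 16 samples detected it. The normalized scale ends at 13.95, so for a gene near it in one organ, or detected in few samples of the other, the scale limits the size of the difference, and such differences are not ranked closely. Levels of different genes are not compared, since probes differ in brightness, and in RNA from whole organs fewer cells of a type and less RNA per cell cannot be told apart.

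Some libraries stood apart within their organ. Tracheas 1 and 5 had low levels of genes of stratified epithelium and of the thymus, and lung 6 held transcripts that were otherwise high in trachea. The second array of trachea 2 differed from its first by 0.33 (root mean square over all 25697 probes, detected or not), and by 0.31 from trachea 6. That of lung 2 differed by 0.22 from its first and by 0.24 from the nearest other lung. Where leaving out tracheas 1 and 5 moved a list's count of higher or lower genes by over 1.5 times, or changed the call of a gene named from a list, the value without them is given beside it.

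Trachea and lung differed in most of the genes measured. Of 10019 genes tested, including 749 probes with no gene symbol, 2986 (29.8%) were higher in trachea and 3859 (38.5%) were lower, with a median difference of -0.09. With a difference of at least 2-fold added to the rule, 1149 genes (11.5%) were higher and 1177 (11.7%) lower. All 8 tracheas lay above all 8 lungs in 1551 genes (15.5%) and below them in 2120 (21.2%). The first principal component of the 16 samples held 75.4% of the variance and separated the organs. In all, 201 genes were detected in 8 of 8 tracheas and 0 of 8 lungs, and 131 the other way round. A list member detected in one organ only had to differ in order to enter, so the counts per list below describe the members that passed. These counts are to be read beside the percentages of all genes given here.

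**Figure D1:**
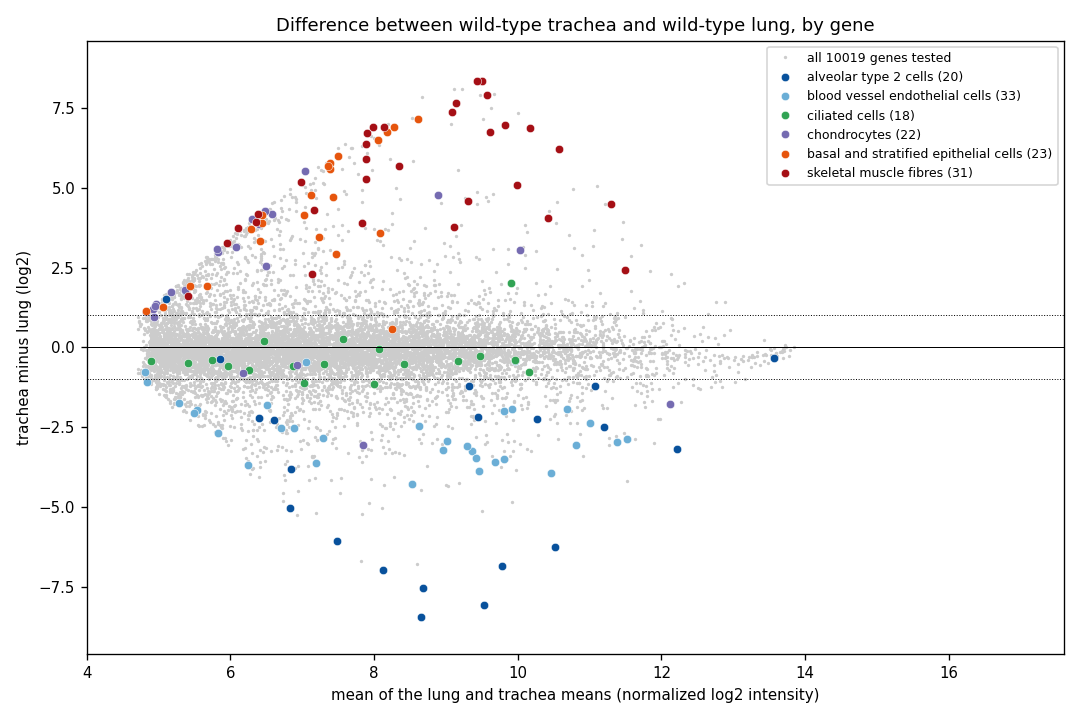
Difference between trachea and lung (log2, y axis) against the mean of the tissue means (normalized log2 intensity, x axis) for the 10019 genes tested, with the tested members of 6 lists coloured and dotted lines at a 2-fold difference. Above the upper line lie 31 of 31 skeletal muscle, 22 of 23 basal and stratified and 17 of 22 chondrocyte genes, below the lower one 17 of 20 alveolar type 2 and 29 of 33 endothelial genes, and 15 of 18 ciliated cell genes lie between the lines.

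Alveolar genes were lower in trachea, and those of surfactant proteins B, C and A were among the largest differences of the array. Of the 20 alveolar type 2 genes tested (22 listed, 21 with a named probe), 18 were lower, 17 of them at least 2-fold, with a median of -2.84. Sftpb, whose protein is needed for the surfactant film, was 12.74, 12.90 and 12.93 in lung and 4.19, 4.45 and 4.62 in trachea. No trachea detected it, so its level was at least 237-fold lower there (adjusted p = 3.46e-23). Sftpc, a protein made by type 2 cells alone among lung epithelia, was 13.44, 13.56 and 13.67 in lung and 4.30, 5.55 and 6.80 in trachea. The groups did not overlap, 5 of 8 tracheas still detected Sftpc, and trachea 8 was the highest of them. The difference was -8.07 ± 0.28 (adjusted p = 3.58e-14). For Sftpa1, detected in 3 of 8 tracheas, the difference was -7.54 ± 0.16, and for the phosphate transporter gene Slc34a2, detected in 1, it was -6.97 ± 0.13.

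Several other type 2 products were lower but still detected in trachea, and Lamp3 was not detected there. The chemokine gene Cxcl15 was 13.07 to 13.36 in lung and 4.97 to 8.02 in trachea (-6.85 ± 0.31), and Chil1, a chitinase-like secreted protein, was 13.45 to 13.74 and 6.92 to 7.99 (-6.25 ± 0.13). The lamellar body gene Lamp3 was detected in 8 lungs and 0 tracheas and was at least 20.6-fold lower. Sftpd, the collectin SP-D that cells outside the alveolus also make, was 13.68, 13.82 and 13.95 in lung and 10.08, 10.72 and 11.10 in trachea (-3.18 ± 0.13). Abca3, the lipid pump of lamellar bodies, was likewise well detected in every trachea (8.71, 9.10 and 9.81 against 11.17, 11.41 and 11.59 in lung). Dlk1, a Notch-family ligand-like protein, went the other way and was detected only in trachea (at least 1.80-fold higher), and Lyz2, a lysozyme gene shared with macrophages, did not pass (-0.34 ± 0.15, adjusted p = 0.0539). Lyz2 was called lower when tracheas 1 and 5 were left out (-0.42, adjusted p = 0.0316).

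Of 15 surfactant secretion genes, which share 10 tested members with the type 2 list, 12 were lower and 1 higher, with a median of -2.50. The 3 exceptions are genes of lipid supply. Fasn, fatty acid synthase, was higher in trachea (0.62 ± 0.16), and the desaturase gene Scd1 did not pass (12.43, 12.65 and 12.89 in lung against 12.26, 12.51 and 13.21 in trachea, difference -0.07 ± 0.12). Fabp5, a fatty acid carrier, was 6.19 to 6.77 in lung, 7.67 to 9.23 in tracheas 2, 3, 4, 6, 7 and 8, and 4.55 and 4.47 in tracheas 1 and 5. It did not pass over all 8 tracheas (1.12 ± 0.64, adjusted p = 0.127) and was higher by 2.17 without tracheas 1 and 5 (adjusted p = 2.37e-08), which made 2 of the 15 genes higher.

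Alveolar type 1 genes were lower as well, 15 of 15 tested, 14 of them at least 2-fold, with a median of -2.76. Cldn18, a tight junction protein of the alveolar barrier, was 10.85, 11.21 and 11.43 in lung and 4.33, 4.44 and 4.78 in trachea. With 0 of 8 tracheas detecting it, Cldn18 was at least 72.9-fold lower (adjusted p = 7.46e-19). Ager, the receptor RAGE on type 1 cells, was 13.26, 13.42 and 13.49 in lung and 9.78, 10.29 and 11.31 in trachea, with trachea 1 the highest (-2.99 ± 0.17). Scnn1g, the gamma subunit of the epithelial sodium channel, differed by -5.03 ± 0.13, Gprc5a by -3.48 ± 0.12 and Pxdc1 by -3.41 ± 0.11. Aqp5, a water channel that glands also use, had the difference nearest 0 of the list (-0.86 ± 0.17), and the organs overlapped.

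Genes of blood vessel endothelium were lower in trachea, 32 of 33 tested, 29 of them at least 2-fold (40 listed, 37 with a named probe), with a median of -2.67. Cdh5, the adhesion protein VE-cadherin, was 8.84, 8.98 and 9.32 in lung and 4.97, 5.37 and 5.84 in trachea (-3.63 ± 0.10, adjusted p = 2.63e-15). Car4, a carbonic anhydrase on the surface of lung capillaries, was 10.40, 10.68 and 10.80 in lung and 6.00, 6.38 and 6.78 in trachea (-4.26 ± 0.11). Every trachea lay far below every lung for both genes. Calcrl, the receptor subunit for adrenomedullin, was detected in 8 lungs and 0 tracheas (at least 8.61-fold lower), and Tmem100, Icam2 and the phosphatase gene Ptprb differed by -3.94 ± 0.12, -3.88 ± 0.14 and -3.59 ± 0.17. Ackr1, a chemokine-binding receptor of venules, was the exception, detected in 8 tracheas and 0 lungs and at least 2.36-fold higher in trachea. Of 5 lymphatic endothelial genes tested, 3 were lower and 1 higher, and Lyve1, a hyaluronan receptor, stood at -2.71 ± 0.17.

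Products of glands and goblet cells were higher in trachea. Of 13 tested (22 listed, 19 with a named probe), 12 were higher, 11 of them at least 2-fold, 0 were lower and the median was 2.31. Dmbt1, a secreted mucosal scavenger protein, was 4.16, 4.47 and 9.03 in lung and 11.95, 13.51 and 13.69 in trachea (8.10 ± 0.56, adjusted p = 5.21e-10). The groups did not overlap, and lung 6 was the single lung that detected it. The glycoprotein gene Gp2 (6.99 ± 0.50), the secreted protein gene Wfdc18 (7.00 ± 0.53) and the lactoferrin gene Ltf (5.05 ± 0.44) followed, and Tff2, a trefoil peptide that protects mucus, was 7.99, 9.17 and 11.27 in lung and 12.81, 13.53 and 13.72 in trachea (3.91 ± 0.43). The regulators of this programme, Spdef (2.02 ± 0.25) and Foxa3 (1.71 ± 0.20), were detected in 8 tracheas and in 2 and 3 lungs.

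Dcpp1, Dcpp2 and Dcpp3, near-identical genes of a secreted salivary gland protein family whose probes may share signal, stood at 8.09 ± 0.45, 7.34 ± 0.76 and 7.48 ± 0.74. Lipf, gastric lipase, was 4.92, 5.93 and 12.03 in lung and 13.47, 13.62 and 13.90 in trachea (6.94 ± 0.75). For each of these 4 genes the tracheas lay above all lungs, and lung 6 was the highest lung. Without lung 6 and tracheas 1 and 5 the difference was 7.74 for Lipf, 8.14 for Dcpp2 and 8.49 for Dmbt1, and the gland list had 10 of 11 members higher with a median of 4.15. Lyz1, the lysozyme of Paneth and gland cells, did not pass (-0.04 ± 0.08), at levels of 13.21 to 13.78 near the top of the scale, and its 3 probes ranged from -0.04 to 0.58.

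Genes of club and other airway secretory cells were split, with 7 higher and 8 lower of 18 tested and a median of -0.16, while the mean of the members was higher in trachea (11.31 ± 0.24 against 10.65 ± 0.40, SD, n = 8). Bpifa1, an antimicrobial surface protein of the upper airway, was 6.34, 9.02 and 12.22 in lung and 13.27, 13.45 and 13.64 in trachea (4.48 ± 0.64, adjusted p = 6.67e-06), and the bactericidal lectin gene Reg3g was 5.20, 7.44 and 9.86 against 11.45, 12.18 and 12.54 (4.81 ± 0.53). Bpifb1 (3.67 ± 0.57), Chad (3.05 ± 0.24) and the secretoglobin gene Scgb3a1 (2.42 ± 0.43) were also higher. Chad is on the chondrocyte list as well, and trachea 8 was its lowest trachea (10.56), as for the cartilage gene Acan (6.28). Which cells carry its difference was not tested. Hp, haptoglobin, was lower (-2.88 ± 0.13). Scgb1a1, the main club cell secretoglobin, did not pass (13.55, 13.58 and 13.63 in lung, 13.31, 13.57 and 13.78 in trachea), again at the top of the scale.

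Basal and stratified epithelial genes were higher in trachea, 23 of 23 tested and 22 of them at least 2-fold (30 listed, 28 with a named probe), with a median of 4.14. Trp63, the transcription factor that maintains basal cells, was 4.23, 4.47 and 4.71 in lung and 7.53, 8.57 and 8.88 in trachea. It was detected in 0 lungs and 8 tracheas, at least 10.3-fold higher in trachea (adjusted p = 2.28e-12). The basal keratin gene Krt5 was likewise detected in no lung and was 6.33, 8.90 and 9.88 in trachea, and Krt15 was 4.46, 4.61 and 5.77 in lung and 10.95, 11.76 and 12.22 in trachea (6.90 ± 0.20). Krt14 stood at 6.49 ± 0.35, Krt17 at 5.99 ± 0.30 and Aqp3, a glycerol channel of basal cells, at 4.77 ± 0.17.

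Several suprabasal and cornified genes split the tracheas. Krt13, a keratin of stratified squamous epithelium, was 13.69 to 13.90 in tracheas 2, 3, 4, 6, 7 and 8, but 7.01 and 7.99 in tracheas 1 and 5, against 4.30, 4.48 and 8.79 in lung. Lor, loricrin, the main protein of the cornified envelope, was 13.22 to 13.64 in the same 6 tracheas, and 6.15 and 4.79 in tracheas 1 and 5, against 4.49, 5.33 and 9.09 in lung. The small proline-rich protein gene Sprr3, the late envelope genes Lce3b and Lce3c, the protease gene Asprv1 and the defensin gene Defb4 were detected in 6 of 8 tracheas, and tracheas 1 and 5 were the exceptions each time. Basal genes were less low in these samples, with Krt15 at 10.95 and 11.49, Krt14 at 9.52 and 10.20 and Trp63 at 7.53 and 7.66. Without tracheas 1 and 5 the difference of Krt13 was 8.71 in place of 7.15 and that of Lor 7.81 in place of 5.82, and 23 of 23 members were still called higher, 22 of them at least 2-fold. The labels do not say whether the epithelium above the trachea was included.

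**Figure D2:**
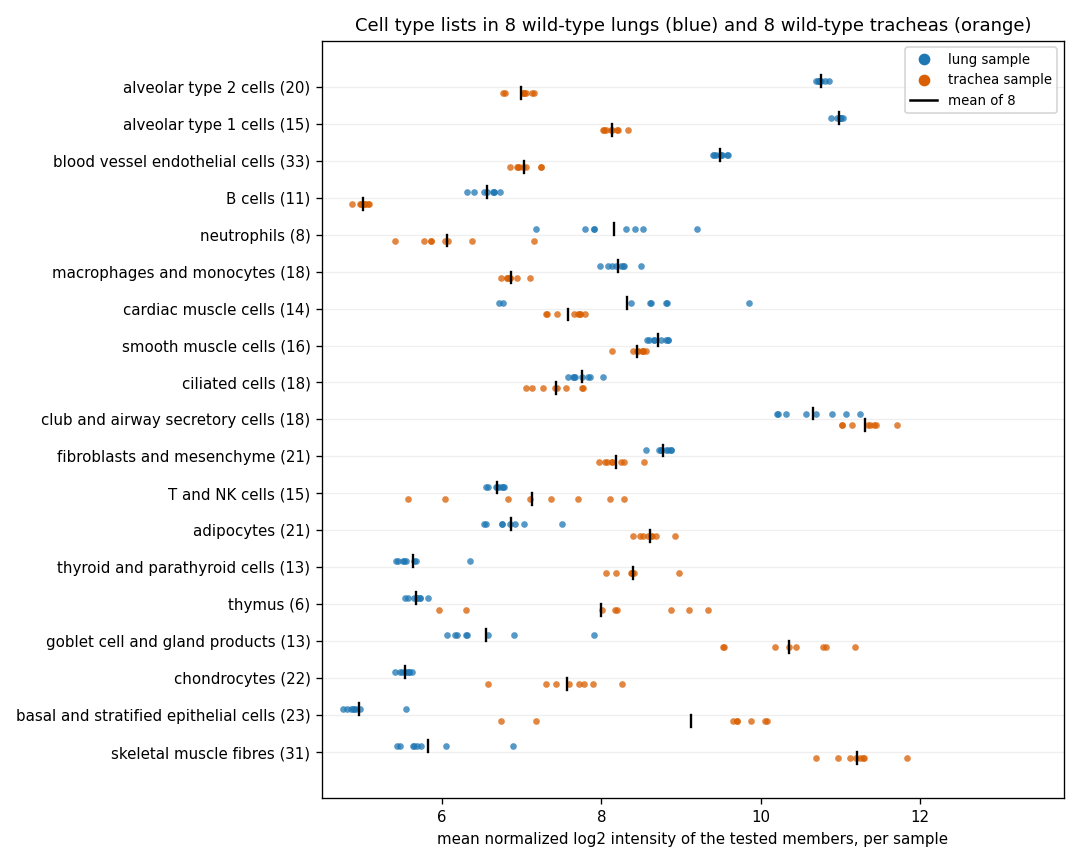
Mean normalized log2 intensity of the tested members of 19 cell type lists (x axis; number of members in brackets) in each of 8 lungs (blue) and 8 tracheas (orange), with bars at the mean of 8. Skeletal muscle, cartilage and gland lists lie higher in every trachea than in any lung, endothelial and alveolar lists lower, and 2 tracheas sit apart in the basal and stratified list (6.74 and 7.18, the others 9.65 to 10.07).

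Genes of ciliated cells were close in both organs. Of 18 tested (37 listed, 23 with a named probe), 12 were lower in trachea but only 2 of them at least 2-fold, 1 was higher, 5 did not pass, and the median was -0.47. Odf3b and the axoneme gene Ccdc113 had the largest negative differences (-1.15 ± 0.17 and -1.12 ± 0.13). The dynein gene Dnaic1 stood at -0.70 ± 0.17 and the dynein light chain gene Dynlrb2 at -0.77 ± 0.14. Tekt1, a tektin of the ciliary microtubules, had medians of 8.07 in both organs (-0.04 ± 0.16). Mlf1 was the exception, at 8.44, 8.87 and 9.42 in lung and 10.40, 10.84 and 11.78 in trachea (2.00 ± 0.17), with no overlap. Mlf1 is also expressed in muscle.

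The promoters of the ciliated genes called were searched for the core of the X-box. RFX transcription factors, regulators of cilium genes, recognise this box. The letters searched were GTTGCC on either strand, in 250 bases before to 50 after the start of each gene in RefSeq GRCm38.p6. Of the 13 called genes 9 had a promoter in the table, and 7 of these held a match (Ccdc113, Dynlrb2, Enkur, Hydin, Mlf1, Pifo and Sntn), against 14.1% of all 27025 promoters. The match in Mlf1, the gene that was higher in trachea, stands beside those of 3 genes that were lower, each as 40 bases of the coding strand with the match in capitals. The windows lie at chr3:67373975-67374014 (plus strand), chr8:116504947-116504986 (plus), chr2:21205377-21205416 (minus) and chr14:13670793-13670832 (plus).
Mlf1: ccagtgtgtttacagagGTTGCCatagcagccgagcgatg
Dynlrb2: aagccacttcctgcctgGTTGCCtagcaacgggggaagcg
Enkur: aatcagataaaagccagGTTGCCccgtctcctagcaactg
Sntn: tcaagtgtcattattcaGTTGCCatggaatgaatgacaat
A match is a description of the letters and does not show that a factor binds there. For the FOXA letters TGTTTAC, 4 of 15 alveolar type 2 promoters (Lamp3, Etv5, Il33 and Dlk1) held a match against 4.05% of all promoters.

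Cartilage genes were higher in trachea. Of 22 chondrocyte genes tested (30 listed, 29 with a named probe), 18 were higher, 17 of them at least 2-fold, and 4 lower, with a median of 2.18. Col2a1, the collagen of hyaline cartilage, was 4.33, 4.43 and 4.67 in lung and 6.97, 8.91 and 9.75 in trachea. Acan, aggrecan, was 4.23, 4.26 and 4.54 against 6.28, 8.48 and 9.43, and Col10a1, the collagen of hypertrophic cartilage, 4.19, 4.27 and 4.39 against 8.03, 10.06 and 10.61. No lung detected any of these 3 genes, and they were at least 12.7-fold, 9.80-fold and 27.7-fold higher in trachea. Trachea 8 was the lowest trachea for each. The chondrocyte regulator Sox9 (at least 4.97-fold), Matn1 (at least 12.1-fold) and Cytl1 (4.76 ± 0.23) were higher as well. Matn4 (-3.07 ± 0.15), Prelp (-1.76 ± 0.08) and Fgfr3 (-0.81 ± 0.12) were lower. When a probe had to be detected in 12 samples, which removes genes that only one organ expresses, 7 members were tested, with a median of -0.54.

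Collagens went in both directions. Of 24 tested, 13 were higher and 7 lower, with a median of 0.40. The basement membrane chains Col4a1 (-1.80 ± 0.12), Col4a2 (-1.89 ± 0.12), Col4a3 (-3.04 ± 0.13), Col4a4 (-2.11 ± 0.11) and Col4a5 (-1.33 ± 0.13) were lower in trachea, and Col4a3, part of the alveolar basement membrane, was detected in 8 lungs and 1 trachea. Col4a6 was the exception of its family (0.38 ± 0.13). Besides the cartilage collagens, the basement membrane collagen Col15a1 (2.12 ± 0.12) and the hemidesmosome collagen Col17a1 (2.94 ± 0.32) were higher. Fibrillar collagens of connective tissue differed little, with Col1a1 at 0.55 ± 0.16, Col1a2 at 0.44 ± 0.17 and Col3a1 at 0.56 ± 0.19, and the second probe of Col3a1 had the opposite sign (-0.14). Col1a2 did not pass when tracheas 1 and 5 were left out (0.32, adjusted p = 0.112).

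Of 33 genes of elastic fibres, proteoglycans and basement membrane, 10 were higher and 18 lower (median -0.47). The proteoglycan genes Lum (5.90, 6.28 and 6.75 in lung, 9.84, 9.99 and 10.32 in trachea, 3.71 ± 0.11), Acan and Fmod (2.56 ± 0.22) were higher, and the elastic fibre gene Mfap4 (-2.88 ± 0.11), Npnt (-1.97 ± 0.16) and Ogn (-1.89 ± 0.13) were lower. Fibroblast genes were split, 9 higher and 10 lower of 21 tested. Their median was 0.05 while the mean of the members was lower in trachea (8.18 ± 0.18 against 8.77 ± 0.10). Of the 9 higher genes 3, and of the 10 lower ones 7, differed at least 2-fold. The higher ones included Lum and the collagen genes Col1a2 and Col3a1, given above. The lower ones included the transcription factor gene Tcf21 (9.85, 10.02 and 10.15 in lung, 5.39, 5.89 and 6.57 in trachea, -4.10 ± 0.12), the methyltransferase gene Inmt (-4.18 ± 0.09), the growth factor gene Wnt2 (at least 7.88-fold lower) and Gpc3 (-2.31 ± 0.15).

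**Figure D3:**
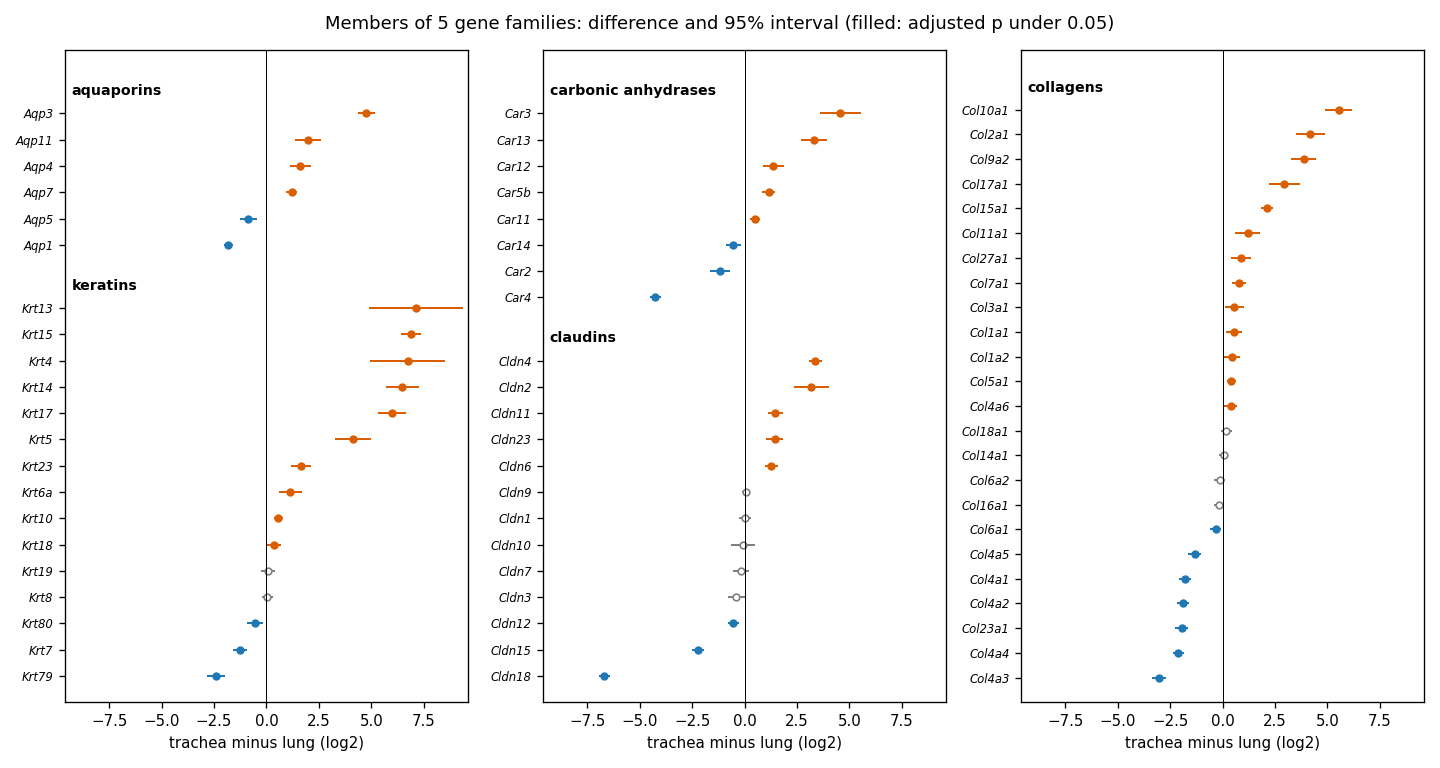
Difference between trachea and lung (log2, x axis) with its 95% confidence interval for the tested members of 5 gene families, filled where the adjusted p was under 0.05 (orange higher, blue lower in trachea). Cldn18, Car4 (-4.26) and the type IV collagens except Col4a6 lie on the lung side, and Krt13 (7.15), Col10a1, Aqp3 (4.77) and Car3 (4.58) on the trachea side.

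Skeletal muscle genes were among the largest differences in the direction of trachea. All 31 members tested (40 listed, 34 with a named probe) were higher and at least 2-fold so, with a median of 5.28, and for 30 every trachea lay above every lung. Mylpf, the regulatory light chain of fast fibres, was 4.39, 4.90 and 8.04 in lung and 13.26, 13.66 and 13.87 in trachea (8.35 ± 0.38, adjusted p = 1.36e-12). Tnnc2, fast troponin C, was 4.26, 4.63 and 9.04 against 13.55, 13.65 and 13.83 (8.32 ± 0.51). Both were detected in 3 of 8 lungs and lay near the top of the scale in trachea. The calcium buffer gene Pvalb (7.90 ± 0.47), the perinatal myosin heavy chain gene Myh8 (7.64 ± 0.49), the fast myosin gene Myh4 (6.89 ± 0.21) and the alpha-actin gene Acta1 (6.96 ± 0.58) followed. Lung 6 was the highest lung for Mylpf, Tnnc2 and Acta1, and without it and tracheas 1 and 5 all 31 members were still at least 2-fold higher. The list mean of a sample was 10.70 to 11.84 in trachea and 5.44 to 6.90 in lung.

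Promoters of these genes are shown for the sites of MEF2 and of serum response factor (the CArG box), both regulators of muscle genes. Of 31 called genes 21 had a promoter in the table. A MEF2 site was found in 5 (Myh1, Myh4, Myh8, Pvalb and Ttn) against 3.70% of all promoters, and a CArG box in 2 (Acta1 and Myh4) against 1.81%, both motifs being read on either strand in the window described above. In the 9 smooth muscle genes called that had a promoter, 0 held either motif. The myosin genes Myh1, Myh4 and Myh8 lie in one cluster on chromosome 11, at windows chr11:67199876-67199915, chr11:67237615-67237654 and chr11:67277010-67277049 (plus strand), and share the letters of the MEF2 match, in capitals. The CArG box of Acta1, on the minus strand at chr8:123894824-123894863, stands last.
Myh1: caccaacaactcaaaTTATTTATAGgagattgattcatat
Myh4: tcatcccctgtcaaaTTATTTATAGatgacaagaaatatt
Myh8: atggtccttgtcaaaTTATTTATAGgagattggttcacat
Acta1: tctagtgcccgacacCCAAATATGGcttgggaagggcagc

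Smooth muscle genes were more often lower than higher in trachea. Of 16 tested, 9 were lower, 5 of them at least 2-fold, 4 were higher and 3 not called, with a median of -0.58. Over all genes tested, 38.5% were lower and 29.8% higher. Without background correction 9 were again lower, 1 of them at least 2-fold. The myosin light chain kinase gene Mylk was 10.63, 10.77 and 10.95 in lung and 8.36, 9.32 and 9.66 in trachea (-1.68 ± 0.16). Myocd, the activator of the smooth muscle programme, was detected in 8 lungs and 1 trachea (-1.24 ± 0.14), and Hhip stood at -1.34 ± 0.12. Des, desmin, which skeletal muscle also makes, was higher (2.10 ± 0.10), as was Tpm2 (1.33 ± 0.12), whose 3 probes ranged from 1.33 to 7.57. Smtn, smoothelin, did not pass (0.18 ± 0.12).

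Heart muscle genes fell into opposite groups, 8 of 14 lower and 5 higher in trachea. Those of atrial muscle were high in lung. Myl7, the atrial light chain, was 7.21, 10.11 and 11.87 in lung and 4.33, 5.38 and 5.87 in trachea (-4.54 ± 0.53), and the atrial natriuretic peptide gene Nppa was 4.70, 8.18 and 12.21 in lung, where 7 samples detected it, and was detected in no trachea (at least 9.34-fold lower on the mean of 8 lungs). The alpha myosin heavy chain gene Myh6 (-3.79 ± 0.52) and the cardiac and slow troponin C gene Tnnc1 (-3.71 ± 0.44) were lower too. Myl3 (4.54 ± 0.40), Myl2 (at least 5.34-fold) and Csrp3 (2.61 ± 0.47), which slow skeletal fibres also express, were higher in trachea. Lungs 2 and 3 were the lowest for Myl7, Nppa and Myh6, and lung 7 was the highest for each of the 3 genes. Without tracheas 1 and 5 and lung 6, 6 of 11 heart muscle genes were lower and 4 higher.

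Thyroid and parathyroid genes were higher in trachea, 11 of 13 tested, 10 of them at least 2-fold, with a median of 1.92. Tg, thyroglobulin, was 4.27, 4.98 and 10.24 in lung and 13.56, 13.63 and 13.71 in trachea (7.92 ± 0.63, adjusted p = 3.52e-09). No trachea lacked it, and the highest lung was lung 6. The deiodinase gene Dio1 (at least 22.8-fold), the thyroid transcription factor gene Foxe1 (at least 19.8-fold), Iyd (4.64 ± 0.20) and the iodide transporter gene Slc5a5 (at least 2.37-fold) were higher. Slc26a4, the anion exchanger pendrin, which airway epithelium also uses, was lower (at least 2.08-fold), as was Sod3 (-1.77 ± 0.11). Pth, parathyroid hormone, was 12.96 to 13.79 in 7 tracheas and 4.58 in trachea 5, and Chga, chromogranin A of endocrine granules, was 10.59 to 11.99 in the same 7 and 4.53 in trachea 5. In lung, Pth was 8.51 in lung 6 and at most 4.79 in the other 7.

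Of 9 tuft and neuroendocrine genes tested, 7 were higher and 2 lower in trachea (median 0.93). Chga (5.79 ± 0.75), Scg5 (4.66 ± 0.18), Scg2 (at least 7.19-fold) and Resp18 (1.73 ± 0.22) are genes of endocrine secretory granules that parathyroid and thyroid C cells also hold. Plcb2, the phospholipase of taste-type signalling in tuft cells, was lower (-1.29 ± 0.15), and which cells carry this difference was not tested.

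The thymus list was higher in trachea, 6 of 6 tested with a median of 2.41, and again 2 samples stood apart. Rag1, the recombinase of developing lymphocytes, was 7.99 to 9.67 in tracheas 2, 3, 4, 6, 7 and 8, and 5.42 and 6.50 in tracheas 1 and 5. No lung detected Rag1, and on the mean of 8 tracheas it was at least 8.74-fold higher in trachea. Ccl25, the thymic chemokine, was 9.61 to 11.00 in those 6 tracheas and 6.39 and 6.23 in tracheas 1 and 5, against 6.32, 6.60 and 6.71 in lung. Dntt and Prss16 were detected in the 6 and not in tracheas 1 and 5. Without these samples the difference of Ccl25 was 3.69 in place of 2.70, and that of Cd8b1, a coreceptor chain of the T cell lineage, 4.08 in place of 3.28.

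Fat cell genes were higher in trachea, 19 of 21 tested, 13 of them at least 2-fold, with a median of 1.30. Adipoq, adiponectin, was 5.87, 7.24 and 9.68 in lung and 10.42, 10.96 and 11.19 in trachea (3.50 ± 0.40). Genes of brown fat were among the largest differences. Ucp1, the uncoupling protein of heat production, was 6.07, 8.60 and 8.84 in trachea and was not detected in lung (at least 8.93-fold), and Cidea stood at 4.88 ± 0.23 and Cox7a1, which muscle shares, at 3.62 ± 0.35. Dgat2, the last enzyme of triglyceride synthesis, was higher by 3.07 ± 0.19, and the regulator gene Cebpa did not pass (-0.09 ± 0.11).

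Immune genes went in several directions. B cell genes were lower in trachea, 10 of 11 tested (median -1.37), with Fcmr at -3.55 ± 0.11, the antigen receptor subunit Cd79a at -2.42 ± 0.11 and Fcrla at least 4.48-fold lower. Of 8 neutrophil genes, 7 were lower (median -2.04). The calgranulin gene S100a8 was 9.19, 10.89 and 12.41 in lung and 6.45, 7.65 and 10.64 in trachea (-2.81 ± 0.50), and Retnlg was 7.24, 8.32 and 9.35 against 4.43, 4.84 and 7.12 (-3.11 ± 0.34). Trachea 3 was the highest trachea for both, and for S100a8 it reached the lungs. Lcn2, a siderophore-binding protein that epithelium also makes, stood at -4.32 ± 0.22.

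Macrophage genes were lower in 12 of 18 and higher in 4 (median -0.93). Chil3, the chitinase-like product of alveolar macrophages, was 11.59, 12.01 and 12.34 in lung and 4.67, 5.04 and 6.36 in trachea (-6.79 ± 0.20), and Fcgr4 stood at -2.53 ± 0.13 and F7, a coagulation factor of alveolar macrophages, at least 2.56-fold lower. The complement genes C1qb (0.95 ± 0.12) and C1qc (1.01 ± 0.11), typical of tissue macrophages, and the receptor gene Cd14 (0.64 ± 0.14) were higher in trachea. Of 6 mast cell genes, 5 were higher, among them the protease genes Mcpt4 (at least 4.49-fold) and Cpa3 (6.87, 7.18 and 7.43 in trachea, detected in 1 lung). Hdc, histidine decarboxylase, which makes histamine in other cells too, was lower (-1.78 ± 0.13).

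T and NK cell genes went in both directions. Of 15, 8 were higher and 6 lower (median 1.50). Cd8b1 (3.28 ± 0.52), Thy1 (2.75 ± 0.30), Lat (2.06 ± 0.48) and Trat1 (at least 2.53-fold) were higher, and the lower ones included Ccl5 (-2.64 ± 0.32), Klrd1 (-2.00 ± 0.13) and Nkg7 (-1.66 ± 0.19). Cd8b1 was 7.76 and 8.63 in tracheas 1 and 5 and 10.75 to 12.26 in the others, and Thy1 was 9.40 and 9.55 against 10.66 to 11.82. These are the tracheas low in the thymus list, whose part in the T cell result was not tested. Without tracheas 1 and 5, 8 were higher and 7 lower, and with detection in 12 samples required the median was -0.40.

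Antigen presentation and interferon genes were lower in trachea. All 11 MHC class II genes tested were lower, 8 of them at least 2-fold (median -1.28). H2-Aa was 10.66, 11.19 and 11.25 in lung and 9.53, 9.78 and 10.13 in trachea (-1.28 ± 0.10), and Ciita, the master activator of the class, stood at -1.81 ± 0.13, Ctss at -1.75 ± 0.17 and H2-DMb1 at -1.55 ± 0.09. Of 23 interferon response genes 17 were lower and 2 higher (median -0.69), led by Ifit3 (-2.15 ± 0.11), Gbp2 (-1.77 ± 0.08), Bst2 (-1.54 ± 0.18) and Ifit2 (-1.50 ± 0.12), while Oas1g (0.40 ± 0.12) and Cxcl9 (0.58 ± 0.14) were higher.

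Of 22 chemokine genes 9 were higher and 11 lower. After Cxcl15, the largest decreases were those of Cxcl14 (-2.98 ± 0.17), Ccl5 (-2.64 ± 0.32) and Ccl17 (-2.15 ± 0.18). Ccl11, eotaxin, was 6.56, 6.89 and 7.33 in lung and 8.70, 8.99 and 9.39 in trachea (2.10 ± 0.10), and the B cell chemokine gene Cxcl13 was higher by 2.15 ± 0.20. Among 12 complement genes, 7 were lower and 4 higher. Hc, which encodes C5, was 10.26, 10.56 and 10.68 in lung and 4.32, 4.39 and 4.93 in trachea, where 1 sample detected it (-6.07 ± 0.09), and C6 was at least 9.36-fold lower.

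Of 6 nerve and Schwann cell genes, 3 were higher and 2 lower, with a median of 0.28 while the mean of the members was lower in trachea (8.41 ± 0.16 against 8.63 ± 0.04). Of the 3 higher genes, 2 were at least 2-fold higher. On the lower side, Stmn2, a microtubule regulator of neurons, stood at -2.86 and the myelin gene Pmp22 at -1.59. Of 6 red blood cell genes, 1 was higher and 2 lower, and without tracheas 1 and 5 the red blood cells list had 0 higher and 1 lower.

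Transcription factor genes were mostly lower. Of 36 transcription factor genes of lung and airway tested (48 listed, 46 with a named probe), 25 were lower in trachea and 8 higher, with a median of -1.17. Besides Tcf21, the mesenchymal factor Foxf1 was 7.39, 8.14 and 8.33 in lung and detected in no trachea (at least 8.55-fold lower). Gata6 (-3.18 ± 0.13), Tbx2 (-2.98 ± 0.12) and Tbx4 (at least 2.70-fold) were lower, as were the endothelial factors Sox17 (-2.52 ± 0.11) and Sox18 (-2.47 ± 0.16). Nkx2-1, the factor that specifies lung and thyroid, was 9.81, 10.01 and 10.31 in lung and 8.20, 8.92 and 10.03 in trachea (lower, adjusted p = 0.00039), so the groups overlapped, and tracheas 1 and 5 were the highest. Foxa2 was lower (-1.91 ± 0.14) and Foxa1 did not pass (7.98, 8.27 and 8.41 against 7.73, 8.44 and 8.97). Sox2, which marks the airway part of the early epithelium, was higher (0.86 ± 0.20), and so were Klf5 (1.32 ± 0.12) and Elf3 (1.09 ± 0.13), besides Trp63, Sox9, Spdef and Foxa3.

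Hox genes, which set position along the body axis, differed by gene. Of 27 listed, 11 were tested, 5 were lower and 2 higher. Hoxa5 was 9.70, 10.03 and 10.39 in lung and 7.14, 7.24 and 7.56 in trachea (-2.72 ± 0.10), and Hoxb5 (-2.92 ± 0.15) and Hoxa7 (-1.92 ± 0.17) were also lower. Hoxb7 stood at -0.88 ± 0.21, and Hoxb6, detected in 6 lungs and 0 tracheas, was at least 1.14-fold lower. Hoxd8 (at least 2.67-fold) and Hoxd9 (at least 1.42-fold) were detected in 8 tracheas and 0 lungs. Hoxa2, Hoxa4, Hoxb2 and Hoxb4 did not pass (-0.32 to 0.24).

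Of 34 genes of the Wnt, Fgf, Bmp and hedgehog pathways, 21 were lower and 9 higher (median -0.79). Among ligands, Wnt2 and Wnt3a (-3.21 ± 0.13) were lower, and Wnt4 (5.89, 6.23 and 6.49 in lung, 8.03, 9.11 and 9.66 in trachea) and Wnt7b (5.49, 6.00 and 6.16 against 6.75, 8.79 and 9.57) were higher. Wif1, a secreted Wnt inhibitor, was higher by 2.96 ± 0.25. Bmp6 (-2.67 ± 0.11) and the Bmp pathway inhibitor gene Smad6 (-3.17 ± 0.14) were lower.

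**Figure D4:**
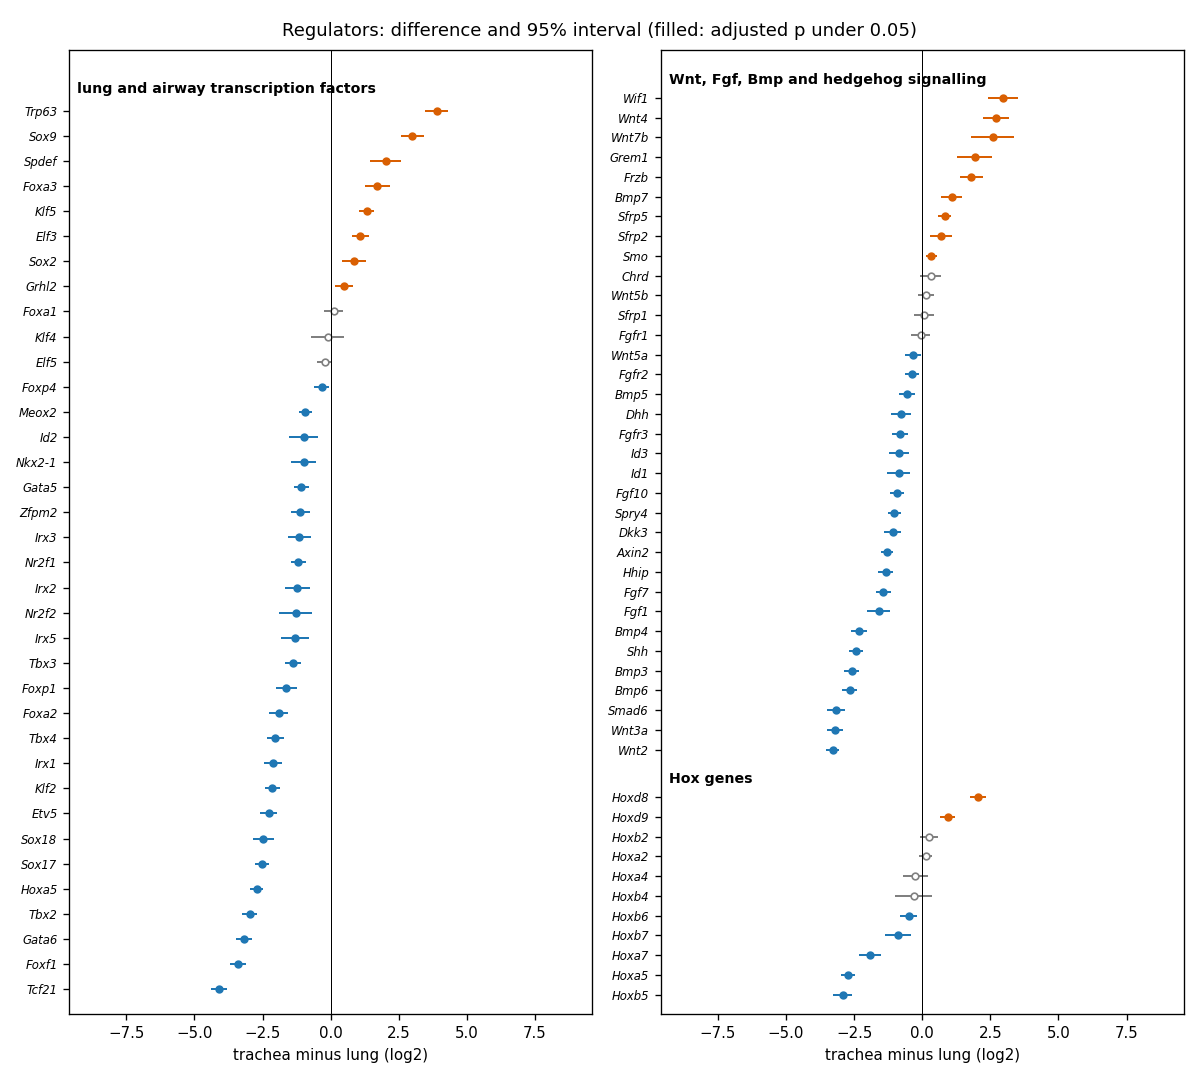
Difference between trachea and lung (log2, x axis) with its 95% confidence interval for 36 transcription factor genes, 34 signalling genes and 11 Hox genes, filled where the adjusted p was under 0.05 (orange higher, blue lower in trachea). Trp63 and Sox9 lie at the trachea end and Tcf21 (-4.10) and Foxf1 at the lung end of the factors, and Wif1 (2.96) and Wnt2 at the ends of the signalling genes.

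Barrier and transport families changed member by member. Of 13 claudins tested, 5 were higher, 3 lower and 5 not called. Beside Cldn18, Cldn15 was lower (-2.21 ± 0.11). Cldn4, a sealing claudin of columnar epithelium, was 5.89, 6.31 and 6.93 in lung and 9.41, 9.75 and 9.93 in trachea (3.37 ± 0.12), and Cldn2, which forms a cation pore, was detected in 8 tracheas and 0 lungs (at least 6.02-fold). Cldn11 (1.47 ± 0.15), Cldn23 (1.45 ± 0.17) and Cldn6 (at least 1.75-fold) were higher, Cldn12 was lower (-0.54 ± 0.10), and Cldn1, Cldn3, Cldn7, Cldn9 and Cldn10 did not pass (-0.39 to 0.07). Cldn3 (-0.60, adjusted p = 0.00141) and Cldn7 (-0.33, adjusted p = 0.0345) were called lower too when tracheas 1 and 5 were left out, which made 5 of the 13 claudins lower. The 3 probes of Cldn10 ranged from -0.06 to 0.35. Of 6 aquaporins, Aqp3, Aqp11 (1.99 ± 0.27), Aqp4 (1.62 ± 0.22) and the adipocyte channel gene Aqp7 (at least 1.54-fold) were higher, and Aqp1, the water channel of capillary endothelium, was 12.99, 13.04 and 13.28 in lung and 10.96, 11.21 and 11.52 in trachea (-1.82 ± 0.08).

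Among 15 keratins, 10 were higher and 3 lower. The simple-epithelium keratins Krt8 (0.05 ± 0.10) and Krt19 (0.06 ± 0.13) did not pass, and Krt18 differed by 0.36 ± 0.13 and lost its call without tracheas 1 and 5 (0.18, adjusted p = 0.0603). Krt7 differed by -1.25 ± 0.14 and Krt79 by -2.41 ± 0.19. Of 16 carbonic anhydrases listed, 12 had a named probe and 8 were tested. Car3, an isoform of muscle and fat, was 5.49, 7.22 and 9.68 in lung and 11.68, 11.83 and 12.29 in trachea (4.58 ± 0.43), and the cytosolic Car13 was 5.30, 5.46 and 5.87 against 7.56, 9.09 and 9.58 (3.31 ± 0.26), lowest in tracheas 1 and 5. Car5b (1.15 ± 0.13), Car11 (0.52 ± 0.09) and Car12 (at least 1.77-fold) were higher, and Car2 (-1.16 ± 0.20) and Car14 (-0.53 ± 0.15) were lower, besides Car4. Car6 passed the detection threshold in none of the wild-type samples and was not tested.

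Salt transport genes were lower in 10 and higher in 7 of 19 tested (median -0.44). The chloride channel gene Cftr was 5.46, 5.88 and 6.58 in lung and detected in no trachea (at least 2.06-fold lower), and the sodium channel subunit genes Scnn1a (-1.93 ± 0.10) and Scnn1b (-1.42 ± 0.14) were lower like Scnn1g. Higher were the potassium channel gene Kcnn4 (2.00 ± 0.17), Fxyd3 (3.09 ± 0.16), Clca2 (at least 2.65-fold) and the goblet cell gene Clca1 (2.38 ± 0.54), which reached 10.72 in trachea 3 and was at most 7.71 in the other tracheas. Of 3 ionocyte genes tested, Cftr was lower, Moxd1 higher (at least 6.47-fold), and Stap1 did not pass (0.37 ± 0.24, adjusted p = 0.178). The lungs lay at 4.90 to 5.59 for Stap1, tracheas 1 and 5 at 4.56 and 4.80, and the remaining tracheas at 5.21 to 6.49. With those 2 tracheas left out it was called higher (0.65, adjusted p = 0.00442), which made 2 of the 3 ionocyte genes higher.

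Genes of energy metabolism were higher in trachea in 3 lists, which hold isoforms typical of muscle. Of 40 respiratory chain and ATP synthase genes, 39 were higher, 18 of them at least 2-fold (median 0.97). The muscle-type subunits Cox8b (3.90 ± 0.29), Cox7a1 and Cox6a2 (2.43 ± 0.31) had the largest differences, and the ubiquitous Cyc1, cytochrome c1, was 8.99, 9.08 and 9.36 in lung and 10.36, 10.84 and 11.04 in trachea (1.70 ± 0.09). Of 22 glycolysis genes, 20 were higher (median 1.60), led by the muscle isoforms Eno3 (5.08 ± 0.24), Pgam2 (4.88 ± 0.34), Pygm (4.29 ± 0.20), Fbp2 (4.01 ± 0.16) and Pfkm (3.52 ± 0.18), and Pygb, the brain glycogen phosphorylase, was lower (-0.28 ± 0.11). Of 20 fatty acid oxidation genes, 17 were higher (median 1.15), with Cpt1b, the muscle carnitine transferase, at 3.72 ± 0.24, the pyruvate dehydrogenase kinase gene Pdk4 at 2.82 ± 0.25 and Fabp3 at 2.37 ± 0.40, while Cd36 (at least 1.87-fold) and Angptl4 (-1.40 ± 0.21) were lower. The skeletal muscle list mean was higher in every trachea by the ranges given above, and its part in these 3 lists was not tested.

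Of 35 genes of xenobiotic metabolism, 14 were higher and 19 lower. Aldh3a1, an aldehyde dehydrogenase of surface epithelia, was 12.92 to 13.63 in 6 tracheas, 10.29 and 10.85 in tracheas 1 and 5, and 8.95, 9.49 and 10.12 in lung (3.16 ± 0.44). Adh7 (3.02 ± 0.18), Cyp2e1 (2.88 ± 0.27), Cyp2a5 (2.85 ± 0.28) and Cyp4a12a (2.44 ± 0.17) were higher, and Cyp2b10 (-2.37 ± 0.11), Fmo1 (-2.35 ± 0.10) and Cyp4b1 (-1.96 ± 0.16) lower. The median of the list was -0.39 while the mean of its members was higher in trachea (9.90 ± 0.18 against 9.76 ± 0.10).

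Of 18 cell proliferation genes, 8 were higher and 2 lower (median 0.49), with Top2a at 1.39 ± 0.36, Birc5 at 1.26 ± 0.35 and Cdk1 at 1.03 ± 0.28. The list mean was 5.74 and 5.73 in tracheas 1 and 5, below every lung (6.10 to 6.28), and 6.44 to 7.60 in the other 6, in which the thymus list mean was 8.01 to 9.34. Without tracheas 1 and 5, 14 of 18 were higher. Whether thymus cells carry this difference was not tested.

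Among 22 immediate early and heat shock genes, 11 were lower and 3 higher (median -0.25), and without tracheas 1 and 5 the immediate early and heat shock list had 5 higher and 10 lower. Ier3 (-2.16 ± 0.09), the endothelial factor gene Klf2 (-2.14 ± 0.11) and Jun (-1.88 ± 0.17) were lower, Hspa1a (1.52 ± 0.22) and Gadd45g (1.05 ± 0.13) higher, and Fos (-0.22 ± 0.22) and Egr1 (0.16 ± 0.23) did not pass. Of 15 circadian clock genes 7 were lower and 3 higher. The repressor genes Per1 (-1.09 ± 0.12), Cry2 (-0.90 ± 0.09), Per2 (-0.83 ± 0.14) and Ciart were lower and their activator Arntl (4.74, 5.14 and 5.74 in lung, 5.31, 6.19 and 6.48 in trachea, 0.91 ± 0.16) and the output gene Usp2 (1.70 ± 0.10) higher. The labels give no time of day, and any gap in sampling time between the organs cannot be told apart from the organs.

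Outside the lists, the ceramidase gene Acer2 (11.76, 11.95 and 12.40 in lung, 6.69, 6.93 and 7.23 in trachea, -5.12 ± 0.11) and Lgi3 (-5.20 ± 0.15) were far higher in lung. Itih4 (at least 28.1-fold), the phospholipase gene Pla2g1b (at least 23.8-fold), Acoxl (at least 18.0-fold), Upk3b, a uroplakin of the pleural mesothelium (at least 16.4-fold), and Kcne2 (at least 9.89-fold) were detected in 8 lungs and 0 tracheas. In the other direction, Osr2 (at least 18.6-fold), Sypl2 (at least 26.1-fold) and Scin (at least 21.8-fold) were detected in 8 tracheas and 0 lungs. There were 466 genes with a 95% confidence interval of the difference within 0.25 of 0. Of those with a symbol, Rplp1, a ribosomal protein gene, and Hba-a1, alpha-globin of red cells, had the highest mean levels, with lung and trachea means of 13.84 and 13.84 for Rplp1 and 13.73 and 13.72 for Hba-a1, and 37 genes had means above 13 in both organs, near the top of the scale.

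The spread within an organ was wider in trachea. The SD over 8 samples exceeded 1 in 256 genes in trachea and 53 in lung, and it exceeded 3 in 22 genes in trachea. Asprv1 (SD 3.93), Lce3c (3.91), Lce3b (3.82), Defb4 (3.80), Lor (3.72), Rptn (3.72) and Krtdap (3.71) led the named genes in trachea, each through tracheas 1 and 5, and Pth (3.06) through trachea 5. Among lungs, Dcpp2 (2.39) and Lipf (2.36) led through lung 6, and Nppa (2.35) and Bpifa1 (2.00) through a different order of samples.

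In lung 6 several transcripts that marked the tracheas were high together. Lipf was 12.03 there and at most 7.70 in the other lungs, Tg 10.24 against at most 6.70, Lor 9.09 against at most 5.69, and Dmbt1 9.03 against at most 5.01. Nppa of the atrium and Bpifa1 of the airway surface were both highest in lung 7 and lowest in lungs 2 and 3. Nppa was 12.21 in lung 7 and 4.70 and 5.54 in lungs 2 and 3, and Bpifa1 was 12.22 in lung 7 and 6.34 and 6.52 in lungs 2 and 3. Adipoq (9.68 in lung 7, 6.30 and 5.87 in lungs 2 and 3) and Hamp, hepcidin, (9.89, 6.71 and 6.11) were highest and lowest in the same lungs. The airway gene Bpifb1 and the club and airway secretory list mean were likewise highest in lung 7 and lowest in lungs 2 and 3. That list mean was 11.2 in lung 7 and 10.2 in lungs 2 and 3. The mean of the ciliated cells list took another order, highest in lung 1 (8.02) and lowest in lung 8 (7.58). Scgb1a1 was 13.55 to 13.63 in all 8 lungs, near the top of the scale. Gdpd3, a lysophospholipase gene, split the lungs in another way, with 9.50 to 9.54 in lungs 1, 2 and 3 and 5.99 to 6.30 in the other 5, and it did not pass the test between the organs (0.56 ± 0.66, adjusted p = 0.463).

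**Figure D5:**
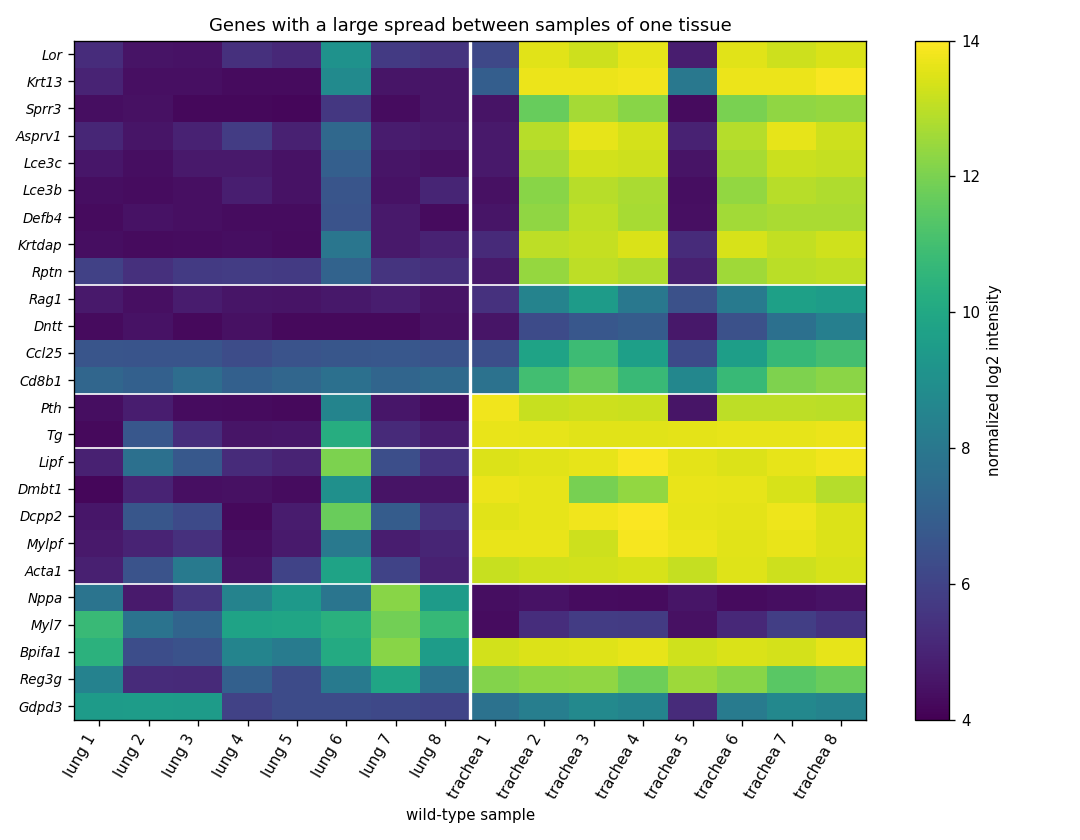
Normalized log2 intensity (colour) of 25 genes chosen for their spread (rows) in 8 wild-type lungs and 8 wild-type tracheas (columns). Tracheas 1 and 5 are dark in the upper blocks of cornified and thymus genes, trachea 5 in Pth, lung 6 is brighter than other lungs in Lipf, Tg and Lor, and lungs 2 and 3 are dark in Nppa and Bpifa1.

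The difference between trachea and lung was also compared between wild-type and Car6-/- mice, with 6 Car6-/- samples of each organ. Of 10532 genes tested for an interaction of organ and genotype with limma, 0 were called (0%), the smallest adjusted p being 0.177. An unadjusted p under 0.05 was found for 1446 of them. That is a larger share than the 0.05 expected on average if no gene had an interaction. Of the 2326 genes that differed at least 2-fold in wild type, 2317 had the same sign and 1715 differed at least 2-fold with the same sign in Car6-/- mice, whose samples the choice of those genes did not use. The genes with the smallest p were Exoc3l4 (-0.29 in wild type and -1.16 in Car6-/-), Tmc7 (1.32 and 0.09) and Smoc1 (0.74 and 2.19). A missed threshold does not show that the genotypes share every difference.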

How the data were processed

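The 16 samples were measured on Illumina mouse bead arrays. The authors deposited the intensity of each probe, not normalized, with a detection p-value per array, per the file headers. They also deposited a table of log2 values, whose columns show a normalization within each tissue, and it was used as an alternative only. In R 4.3.3 with limma 3.58.1, the intensities of all 32 arrays were corrected with normexp (offset 16), quantile-normalized together and converted to log2, and second arrays were averaged with the first. Of 25697 probes, 23978 had 1 gene symbol and 13111 passed the filter on detection, and the probe with the highest mean stood for its gene. The organs were compared with lmFit and eBayes, adjusted by Benjamini-Hochberg over all 10019 genes, and the 4 groups entered 1 model for the interaction. For a gene detected in no sample of one organ, the lower bound of the fold sets the mean of the bright organ against the dim organ's mean of, per array, the lowest signal among detected probes or the probe's own value, whichever was higher. It is a bound on the means and need not hold for each sample. The fit was tested on simulated data. A list's mean is over its tested members.

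The comparison, the 47 lists and their tests were chosen with earlier results of these data known. Named genes were, per list, up to 6 with the largest differences, up to 3 called against the median and up to 3 not called, besides members of the named families, the 15 largest differences each way, the 10 largest SDs per organ, genes detected in one organ only, and the interaction genes with the smallest p. Other genes named were chosen after their values were seen. Array numbers limit the precision.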

Additional observations from a re-analysis of the deposited data

Results flagged for a closer look

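A sample was singled out when its gap to the nearest other sample as a share of the range of its 8 samples exceeded Dixon's critical value. This was so for 43 of 306 named genes in lung and 27 of 306 in trachea, of which 39 and 26 were detected in at least 1 sample of that organ and are given here, and for 7 and 5 of 47 list means. Chance flags about 1 in 20 groups, but the named genes were chosen partly for their spread and many flags share a sample, so the counts are not read against that rate. No explanation was tested. Values are normalized log2 intensities.

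Lung 6 held 25 of the lung genes. Gland and stomach-type products were high there, with Dcpp1 at 8.31, Dcpp2 at 11.7, Dcpp3 at 11.2, Dmbt1 at 9.03, Wfdc18 at 7.06 and Lipf at 12.0. Stratified epithelial genes followed, with Krt13 at 8.79, Krt14 at 6.23, Krt17 at 5.52, Krtdap at 7.94, Lor at 9.09, Asprv1 at 7.40, Rptn at 7.18, Lce3b at 6.64, Lce3c at 7.01, Sprr3 at 5.63 and Defb4 at 6.55. Muscle and endocrine genes were high in the same lung, with Mylpf at 8.04, Tnnc2 at 9.04, Pvalb at 8.89, Myh4 at 5.43, Tg at 10.2, Pth at 8.51 and Chga at 5.01, while Hoxb4 was low at 6.30. Its list means were 5.55 for basal and stratified, 7.91 for gland, 7.40 for keratin, 6.90 for skeletal muscle and 6.35 for thyroid and parathyroid genes.

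Among the other lungs, lung 7 was high in Cldn12 (8.27), Cpt1b (6.61), Cyp2e1 (10.4) and Pdk4 (8.29), with a fatty acid oxidation mean of 8.49 and a low alveolar type 1 mean of 10.9. Lung 4 was high in Aqp1 (13.3), Etv5 (8.11) and Nkg7 (7.40), and low in Ccl25 (6.32) and Col17a1 (5.22). Single flags were a low Foxf1 (7.39) and a high Col4a4 (8.03) in lung 1. Car14 (8.00) was high in lung 3, Krt8 (11.0) in lung 5 and Tbx2 (9.20) in lung 8.

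Trachea 3 was high in Clca1 (10.7) and Retnlg (7.12). It was also high in H2-DMb1 (8.28), Angptl4 (9.48) and the red blood cell mean (8.71). The same trachea was low in Cox8b (11.7), Cyc1 (10.4), Fabp3 (8.81), Ucp1 (6.07) and Tmc7 (6.19). Trachea 4 was high in Car3 (12.3), Car14 (7.38), Mlf1 (11.8), Tpm2 (11.6), Tmem100 (9.20) and the glycolysis mean (10.5), and low in the ionocyte mean (5.64). Trachea 5 was low in Pth (4.58), Chga (4.53), Arntl (5.31) and Gdpd3 (5.23). Trachea 1 was high in Lgi3 (6.14), Col4a3 (5.58), Cldn6 (6.67) and the thyroid and parathyroid mean (8.98), and low in Ciart (5.11). The others were a low Cldn15 (5.23) in trachea 2 and low Cldn9 (5.59) and Hp (9.40) in trachea 7. In trachea 8, Hc (4.93) was high and the smooth muscle mean (8.13) low.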

How the results depend on the processing

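The counts of genes called higher and lower stayed within 1.5 times of the reported ones in the alternatives run. Counts of genes at least 2-fold different depended on how the signal near background was treated. Without background correction 662 were higher and 636 lower, with the authors' deposited log2 values 624 and 734, and with a test against a 2-fold threshold (treat) 736 and 751. When detection in 12 samples was required, which removes genes that one organ alone expresses, 658 were at least 2-fold higher and 954 lower. The authors' values and the settings without tracheas 1 and 5 were added after seeing the data. Median scaling moved the median of all genes from -0.09 to -0.16 and the calls to 2409 higher and 4164 lower. Leaving out 1 sample at a time gave 2814 to 2958 higher and 3686 to 3935 lower, and 1053 to 1156 and 1139 to 1197 at least 2-fold. Without tracheas 1 and 5 the counts were 2913 and 4008, and without lung 6 as well 2869 and 3910. With the mean of all probes of a gene, 5 calls had the opposite sign. Probes of the same gene could also differ in size while sharing a sign. The range was -2.37 to -0.76 for Cyp2b10, -3.79 to -1.32 for Myh6 and -3.07 to -1.34 for Matn4. It was -1.97 to -0.83 for Npnt, -1.77 to -0.80 for Gbp2 and 1.90 to 3.72 for Cpt1b.

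Lungs and tracheas with the same number did not deviate together (correlations from -0.15 to 0.10, and 2 of 8 lungs correlated best with the trachea of their own number). With the replicate number as a block, 2904 genes were higher, 3771 lower, 1149 at least 2-fold higher and 1177 at least 2-fold lower, and 0 interactions were called, as in the other settings of that test (1176 to 1881 genes at an unadjusted p under 0.05).

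No named gene that was called changed sign. Of those not called, Cldn1, Cldn10, Lyz1, Krt8, Krt19, Foxa1, Scd1, Scgb1a1, Tekt1, Hba-a1 and Rplp1 did so under at least 1 alternative. Pygb, Col1a2, Col3a1, Krt18, Oas1g, Fasn, Col4a6 and Exoc3l4 lost their call under at least 1 alternative, and the cause was not tested. Some list medians changed sign. Without a filter they went from 1.50 to -0.02 for T and NK cells, from 1.41 to -0.02 for aquaporins, from -0.44 to 0.01 for airway salt and bicarbonate transport, from -0.32 to 0.03 for Hox genes and from 0.05 to -0.03 for fibroblasts and mesenchyme. With detection in 12 samples they became -0.54 for chondrocytes, -0.40 for T and NK cells, -0.15 for nerve and Schwann cells, -0.02 for claudins and -1.78 for mast cells, of which 1 was left. The claudin median of 0.03 was also -0.02 with median scaling and without trachea 5, and just below 0 without trachea 2 and without tracheas 1 and 5. With genes undetected in one organ set at their bound, the median was 3.57 for the basal list, 2.02 for glands, 1.78 for cartilage, -0.88 for heart muscle, 1.31 for thyroid, -0.87 for B cells, 0.98 for mast cells, 2.07 for thymus and 0.57 for tuft and neuroendocrine genes.

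The main limits are the top of the scale, where 37 genes had means above 13 in both organs and the differences of genes high in one organ are limited as well, and the background, where a fold is a bound only. The labels describe neither the dissection nor the origin of same-numbered organs, and whether neighbouring tissue came with an organ was not tested.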
